A study of Mus musculus with 3 samples.

Results

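Mycn, Myc, Lin28b, Hmga2, Igf2bp1, Igf2bp3, Sox4 and Sox11 are growth regulators of embryonic tissue. They were followed here as a fixed list of 8 genes among the 17864 gene symbols that 3 count tables share, and all 8 were listed in each table. The cells came from E14.5 kidneys of wild-type mice whose strain was mixed, mostly CD-1 with 129. Each of the 3 platforms, Fluidigm C1, Drop-seq and 10x Chromium, gave 1 library, and no group was treated or mutant. The droplet platforms, Drop-seq and 10x, catch cells in droplets and count molecular tags (UMIs), while C1 isolates each cell in a chamber and its table counts reads. For each gene the level and the share of cells with a count were taken in 5 cell classes found by clustering and marker genes: cap mesenchyme (the nephron progenitors), nephron epithelium, ureteric epithelium, stroma and endothelium. The question was in which of these classes each regulator was high, and whether a platform missed it.

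MYC and its paralog MYCN are transcription factors that pair with MAX and are known for driving ribosome production and cell growth, and both are active in embryonic kidney. LIN28 proteins bind the precursors of let-7 microRNAs and keep them from maturing. Mature let-7 lowers the messages of growth genes such as Hmga2 and the Igf2bp genes, so LIN28, let-7 and these targets form a developmental timing axis, which is also known for setting how long nephron progenitors last in mouse. Sox4 and Sox11 belong to the SoxC group of HMG-box transcription factors, which act in progenitors of many organs, the kidney included.

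The sequences below are the let-7 seed and its matches in the messages of some of these genes, shown here because the axis is defined by that pairing. Of 10 mature mouse let-7 names in RefSeq (GRCm38.p6), 9 share the same seed, bases 2 to 8, in capitals below. The let-7 RNAs themselves were not measured in these libraries.
mmu-let-7a-5p: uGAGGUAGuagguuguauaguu
mmu-let-7b-5p: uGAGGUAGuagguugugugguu
mmu-let-7g-5p: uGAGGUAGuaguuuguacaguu
The message strand was searched for CTACCTCA, for CTACCTC and for TACCTCA in the 3′ UTR of 1 annotated transcript per gene, each position being counted once under the longest match. Hmga2 held 7 matches, Lin28b 5, Igf2bp1 5, Mycn 2 and Igf2bp3 1, and Myc, Sox4 and Sox11 held 0. Of 21020 protein-coding genes with an annotated 3′ UTR, 3130 (14.9%) held a match. Each line below gives 1 match with the bases before it, 5′ to 3′ on the minus strand of GRCm38, with the match in capitals.
Lin28b, chr10:45381022-45381043: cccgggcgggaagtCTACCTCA
Hmga2, chr10:120364224-120364245: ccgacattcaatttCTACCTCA
Igf2bp1, chr11:95961778-95961799: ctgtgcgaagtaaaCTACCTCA
Igf2bp3, chr6:49086787-49086808: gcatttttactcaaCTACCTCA
Mycn, chr12:12936499-12936520: taagtactgtaagaaTACCTCA
The full 8-base match stands in the first 4 of these genes and the shorter form with the final A in Mycn. A letter match is a description of the message and not a measured site.

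Drop-seq kept 1964 cells, 10x 2130 and C1 883, with median depths of 7060 UMIs, 7369 UMIs and 166712 reads per cell. Cap mesenchyme held 601, 227 and 170 cells in Drop-seq, 10x and C1, nephron epithelium 616, 449 and 143, ureteric epithelium 175, 154 and 87, stroma 412, 784 and 393, and endothelium 101, 367 and 77. No cell name was shared between libraries. Marker lists of the 5 classes peaked in their own class in each library, except that in C1 the distal tubule list had 138 CPM (counts per 1000000 counts of the class) in nephron epithelium, against 526 CPM in ureteric epithelium, and the podocyte list 34.1 CPM, against 112 CPM in endothelium. Markers of cap mesenchyme also had counts elsewhere. Their summed level was 1998 CPM in 10x cap mesenchyme, against 33 to 256 CPM in the other 4 classes. In C1 it was 2524 CPM in cap mesenchyme, against 445 to 698 CPM in the other 4 classes, and in Drop-seq 1643 CPM against 82 to 500 CPM. Drop-seq kidney classes carried 2092 to 12683 CPM of erythroid markers. In Drop-seq, 3 clusters of the cap class, with 164, 108 and 90 cells, had no cap marker among their 10 leading genes, which were histone or mitosis genes in the first and last. The 13 immune cells of C1 carried 1317 CPM of cap markers, against 13.6 CPM in the 57 immune cells of 10x, and 1 of them held 34.4% of that class's reads. In Drop-seq 1 ureteric cell had 279060 UMIs, which was 15.6% of its class and 75.6% of a cluster of 16 cells led by Krt19. Leaving out the deepest cell of each class in each library, an alternative chosen after seeing the data, changed no call of the 8 genes. The part of the other points in the results below was not tested.

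Levels are CPM of the counts summed over a class, with exact 95% Poisson intervals that cover counting error only. C1 reads are not independent molecules, so the C1 intervals are too narrow. With 1 library per platform the replicate error of a class comparison is the spread between 3 platforms, tested with edgeR's quasi-likelihood test on 15 class sums with the library as a block and Benjamini-Hochberg adjustment over 9409 genes. All 8 genes passed the filter on low counts. Fold changes are cap mesenchyme over the other class on the log2 scale. Classes were also put in order by their mean log2 level, centred in each library. Neighbours in that order are said to differ beyond the spread where all 3 libraries shared the sign and the mean difference exceeded its SD. This describes an order made from the same values and is not a test.

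Against stroma, 5 of the 8 genes were called higher in cap mesenchyme (Myc, Sox11, Hmga2, Igf2bp1 and Sox4) and 0 lower, where 11.5% of all tested genes were called, 6.89% higher and 4.58% lower. Against nephron epithelium 2 were called higher (Hmga2 and Sox4), where 6.93% of all genes were called, 2.8% higher and 4.13% lower. Against ureteric epithelium 1 was called higher (Myc), where 15.8% were called, 7.86% higher and 7.92% lower. Against endothelium 4 were called higher (Mycn, Hmga2, Sox4 and Sox11), where 23.4% were called, 11.8% higher and 11.6% lower. In no contrast was any of the 8 called lower by edgeR or by DESeq2, and 0 were lower at an unadjusted p under 0.05. The members' median fold changes were 0.49, 0.02, 0.10 and 0.45 against stroma, nephron epithelium, ureteric epithelium and endothelium, beside 0.09, 0.05, 0.06 and 0.06 over all tested genes. Without TMM scaling the share of all calls that were higher in cap mesenchyme was 44.3% in place of 60.1% against stroma, 32.0% in place of 40.3% against nephron epithelium, 36.9% in place of 49.8% against ureteric epithelium and 59.3% in place of 50.4% against endothelium.

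**Figure D1:**
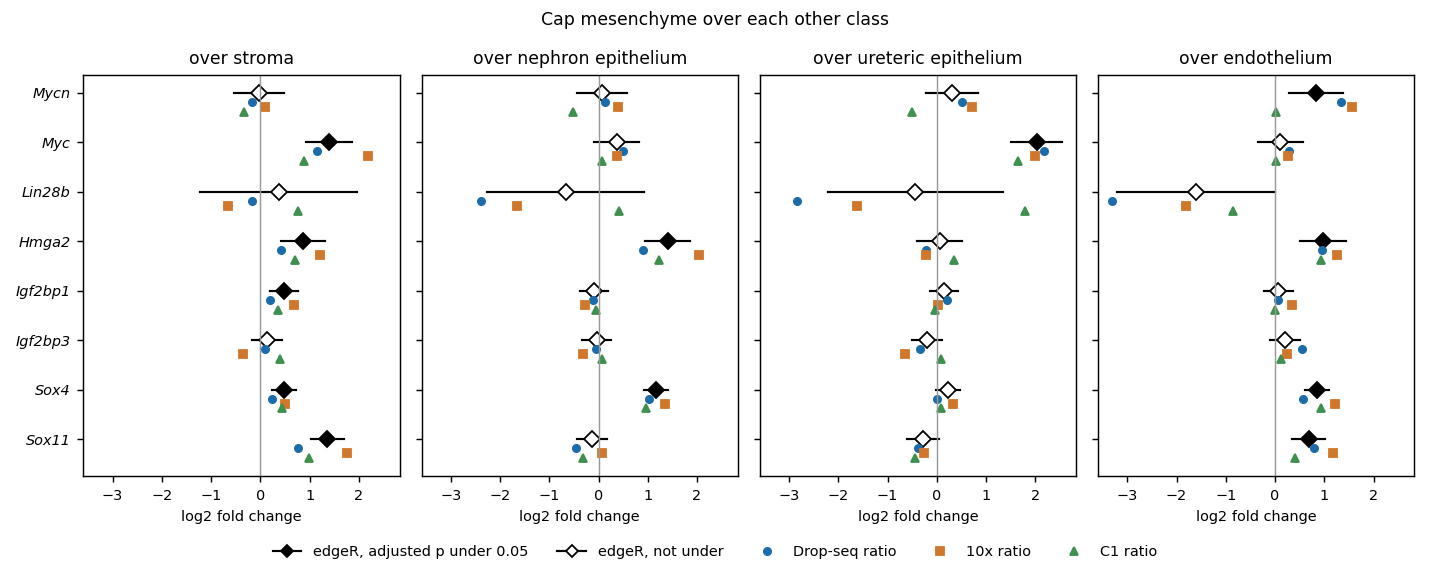
Log2 fold change of each of the 8 genes in cap mesenchyme over stroma, nephron epithelium, ureteric epithelium and endothelium, with 95% intervals from edgeR as diamonds and lines, and the ratio of each library as a coloured point. Filled diamonds mark an adjusted p under 0.05, and the largest of these is Myc over ureteric epithelium at 2.03.

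Mycn (chr12:12936093-12941914, minus strand) was lowest in endothelium on the droplet platforms. In Drop-seq it had 90.1 CPM in cap mesenchyme (interval 81.0 to 99.9), 82.9 in nephron epithelium, 63.1 in ureteric epithelium, 101 in stroma and 35.6 in endothelium. The 10x library gave 60.2 CPM in cap mesenchyme (49.9 to 72.1), 45.8 in nephron epithelium, 36.7 in ureteric epithelium, 56.2 in stroma and 20.5 in endothelium. C1 gave 17.7, 25.3, 25.2, 22.1 and 17.6 CPM in the same order. Stroma, cap mesenchyme and nephron epithelium stood at the top with neighbours that did not differ beyond the spread between libraries, and endothelium stood last. Cap mesenchyme was higher than endothelium by 0.83 (SE 0.26, adjusted p = 0.028 with edgeR and Benjamini-Hochberg adjustment), although C1 gave 17.7 and 17.6 CPM in these classes. This call was lost without Drop-seq (adjusted p = 0.241) and without 10x (0.301), while without C1 the fold change was 1.37. Against stroma the fold change was -0.02 (95% interval -0.53 to 0.48), against nephron epithelium 0.07 (-0.44 to 0.58) and against ureteric epithelium 0.31 (-0.22 to 0.83), none of them past the threshold. The sign of the first 2 turned when single libraries were left out. Without C1 the fold change over ureteric epithelium was 0.73 (edgeR adjusted p = 0.00292), past the threshold. In C1, 1 ureteric cell held 131 of the 407 Mycn reads of its class, which stood at 17.9 CPM without it.

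A Mycn count was found in 35.3% of cap cells and 18.8% of endothelial cells in Drop-seq, in 32.6% and 15.3% in 10x, and in 30.6% and 35.1% in C1. Of the immune cells, 0 of 57 in 10x had a Mycn UMI, which allows a share of cells with a UMI of up to 5.26%, and 3 of 13 (23.1%) in C1 had a read. Mycn also varied within classes. In Drop-seq it was 139 CPM in early nephron epithelium and 90.8 in podocytes, beside 40.3 in distal and 31.7 in proximal tubule cells. In 10x, podocytes had 80.0 CPM and distal cells 21.7. The 10x class named proximal tubule held 2 clusters, one of 57 cells with Slc34a1, a proximal tubule phosphate transporter gene, among its leading genes and with 10.6 CPM of Mycn, and one of 174 cells led by Osr2, Clu and Hes5, with 56.2 CPM. In Drop-seq a cluster led by Osr2 and Clu was named early nephron epithelium, so the 10x class is not matched to that of the other libraries. C1 had 41.1 CPM in early nephron epithelium and 9.74 in proximal tubule. Stroma split the same way in each library: nephrogenic-zone stroma, the layer around the progenitors, had 129 CPM in Drop-seq, 92.3 CPM in 10x cells and 26.3 CPM in C1, beside 78.5, 25.5 and 19.9 CPM in interstitial stroma. These sub-classes were not tested. C1 had no podocyte or distal class.

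**Figure D2:**
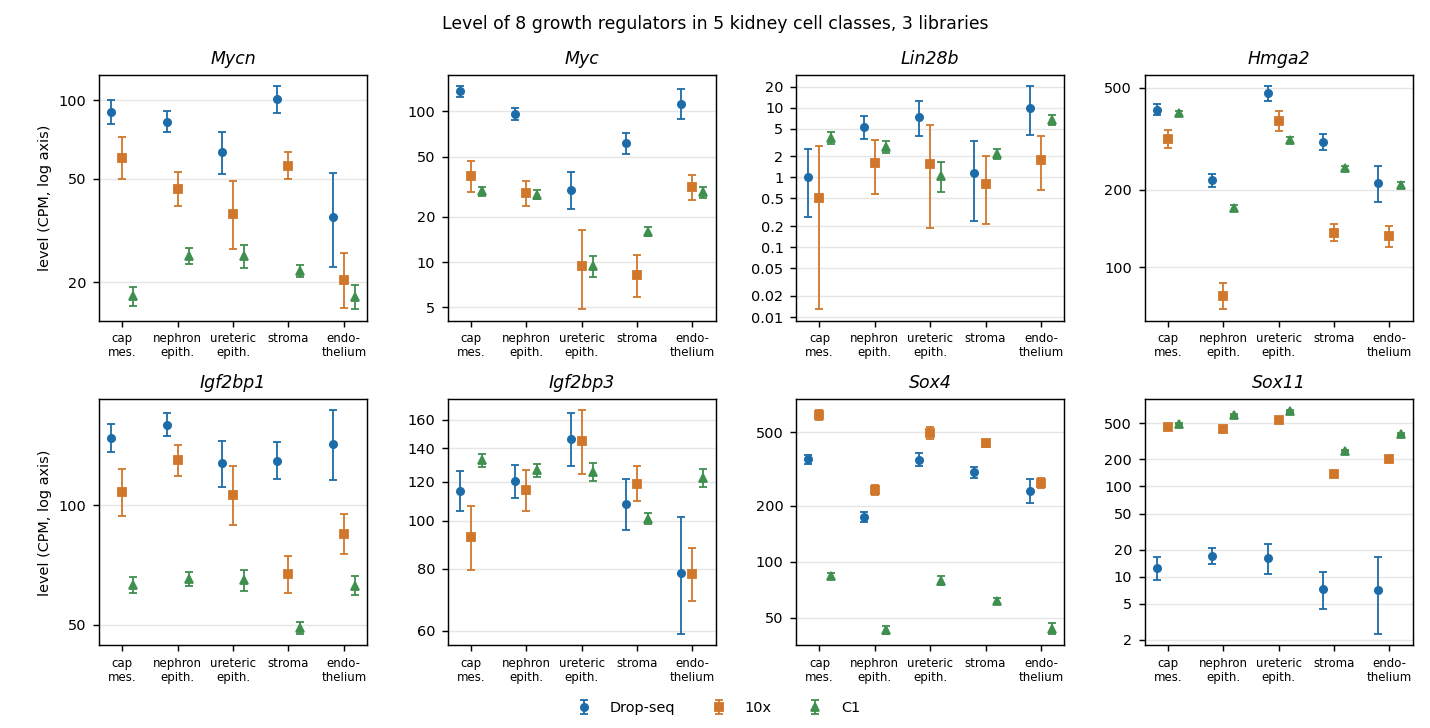
Level of each gene in CPM (log axis) in the 5 cell classes, 1 point per library with its exact 95% Poisson interval. Sox11 lies between 7.12 and 17.0 CPM in Drop-seq and between 135 and 678 CPM in the other libraries.

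Myc (chr15:61985391-61990374, plus strand) was highest in cap mesenchyme and lowest in stroma and ureteric epithelium. Drop-seq gave 136 CPM in cap mesenchyme (125 to 148), 96.3 in nephron epithelium, 30.2 in ureteric epithelium, 61.3 in stroma and 112 in endothelium. In 10x it had 37.5 CPM in cap mesenchyme (29.4 to 47.0), 28.8 in nephron epithelium, 9.38 in ureteric epithelium, 8.18 in stroma and 31.4 in endothelium. C1 gave 29.5, 28.1, 9.41, 16.0 and 29.2 CPM in the same order. In each library cap mesenchyme lay above both stroma and ureteric epithelium with no overlap of intervals. The fold change was 1.39 over stroma (SE 0.22, adjusted p = 0.00091 with edgeR and Benjamini-Hochberg adjustment) and 2.03 over ureteric epithelium (SE 0.24, adjusted p = 6.06e-05), each in 3 of 3 libraries. Without Drop-seq the stroma call was lost at a fold change of 1.47 (adjusted p = 0.0637). Over nephron epithelium it was 0.37 (95% interval -0.09 to 0.82) and over endothelium 0.11 (-0.35 to 0.57), and neither passed. Cap mesenchyme, endothelium and nephron epithelium each stood above the next by more than the SD between libraries, whereas stroma and ureteric epithelium did not differ beyond it. In C1 the first of these steps was 29.5 against 29.2 CPM, and it turned between the HT and E14 groups of cell names. Cells named HT had 35.0 CPM in cap mesenchyme and 20.6 in endothelium, and cells named E14 had 19.6 and 41.5. Of the 563 C1 endothelial reads 107 were in 1 cell.

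The share of cells with a Myc count was 50.2% in cap mesenchyme and 21.8% in stroma of Drop-seq, 26.9% and 5.10% in 10x, and 44.7% and 31.8% in C1. At a fixed 4000 UMIs per cell, cap mesenchyme had 32.4% in Drop-seq and 10.7% in 10x, and stroma 13.5% and 2.44%. Immune cells had a Myc count in 15.8% of cases in 10x and 53.8% in C1, so the stromal and ureteric shares of 10x were not above it. The C1 shares were not read against the 13 immune cells, given their 1317 CPM of cap markers. Podocytes, which leave the cell cycle as they mature, had 31.4 CPM of Myc in Drop-seq and 12.7 in 10x, below the other nephron sub-classes of each library. The 10x value came from 7 UMIs, and its interval (5.12 to 26.2 CPM) overlapped that of distal cells (14.4 to 34.1 CPM). The 10x Slc34a1 and Osr2 clusters had 23.9 and 38.0 CPM. Ureteric clusters led by Krt19, of 16 cells in Drop-seq and 36 in 10x, had 0 Myc counts. The clusters led by Calb1 had 38.0 and 11.3 CPM. The 10x Krt19 cluster held 214078 UMIs in all, too few to tell 0 from 11.3 CPM. Of the 369002 UMIs of the Drop-seq Krt19 cluster 75.6% were in its deepest cell, so that contrast rests mostly on this cell. In C1 the 2 cap clusters were far apart, at 52.1 CPM in the cluster led by Cited1 and 12.7 CPM in the other. Stromal Myc also differed between the 2 groups of C1 cell names, at 21.1 CPM in HT and 6.18 CPM in E14 cells.

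Genes around MYC gave a mixed picture. Of all tested genes, 6.89% were called higher over stroma, 2.8% over nephron epithelium, 7.86% over ureteric epithelium and 11.8% over endothelium. In the same order 4.58%, 4.13%, 7.92% and 11.6% were called lower. Of 26 tested ribosome and growth genes reported as MYC targets, 17 were called higher and 1 lower in cap mesenchyme over stroma (median fold change 0.46), 1 higher over nephron epithelium (0.29), 13 higher over ureteric epithelium (0.38), and 4 higher and 1 lower over endothelium (0.16). No target was lower over either epithelium, also at an unadjusted p under 0.05 and by DESeq2. The count over stroma was 0 when Drop-seq was left out, 4 for 10x and 17 for C1, and that over ureteric epithelium 0, 8 and 17. Polr1b, a subunit of RNA polymerase I, was higher over stroma by 1.15 (SE 0.27, edgeR adjusted p = 0.0114) and over ureteric epithelium by 0.95 (SE 0.28, adjusted p = 0.0313). Srm, the spermidine synthase, was higher over ureteric epithelium by 0.95 (SE 0.18, adjusted p = 0.00221). Tfrc, the transferrin receptor, was higher over stroma by 0.84 and over endothelium by 0.79. Ccnd2, a cyclin of the G1 phase, went the other way over stroma at -1.16 (adjusted p = 0.014), and Odc1, which starts polyamine synthesis, over endothelium at -0.93 (adjusted p = 0.000106). Among 16 tested partners and regulators of MYC, 1, 0, 1 and 2 were called higher in the contrasts with stroma, nephron epithelium, ureteric epithelium and endothelium, and 0 lower. At an unadjusted p under 0.05 there were 1, 2, 2 and 3 higher and 2, 1, 0 and 0 lower, and DESeq2 called 1, 0, 2 and 1 higher and 0, 1, 0 and 0 lower. The edgeR calls were Mxi1, a MAX partner that opposes MYC, at 0.80 over stroma and 1.05 over endothelium, Mxd4, of the same family, at 0.55 over ureteric epithelium, and Mga, another MAX partner, at 0.56 over endothelium.

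Lin28b (chr10:45376620-45486395, minus strand) was scarce everywhere. Drop-seq held 61 UMIs in all kept cells, 10x 19 UMIs and C1 482 reads. In Drop-seq its level was 1.01 CPM in cap mesenchyme from 4 UMIs (interval 0.275 to 2.58), 5.30 in nephron epithelium from 28, 7.26 in ureteric epithelium from 13, 1.14 in stroma from 3 and 9.96 in endothelium from 7. The erythroid class of the same library, with 59 cells, had 17.5 CPM from 6 UMIs and a count in 8.47% of cells, more than any kidney class. It had 12.2 CPM without a cell that held 2 of these UMIs, and counts this small do not settle the order. In 10x the 5 classes held 1, 6, 2, 4 and 6 UMIs, or 0.506, 1.598, 1.56, 0.798 and 1.78 CPM, and the share of cells with a UMI did not pass 1.63%. C1 gave 3.64, 2.73, 1.05, 2.16 and 6.64 CPM in the same order, with counts in 3.56 to 10.4% of cells. On average over the libraries cap mesenchyme and stroma stood lowest and endothelium highest, although in C1 ureteric epithelium was lowest. Only endothelium differed from its neighbour, nephron epithelium, beyond the spread between libraries. In C1, endothelium had 12.5 CPM in cells named E14 but 2.55 CPM in those named HT, below the 3.92 CPM of HT nephron epithelium. Of its 128 C1 reads 35 were in 1 cell. No contrast passed: the fold change was -1.605 over endothelium (SE 0.76, edgeR adjusted p = 0.14), -0.67 over nephron epithelium, -0.43 over ureteric epithelium and 0.37 over stroma. Without C1 it was -2.77 over endothelium (edgeR adjusted p = 0.016) and -2.41 over ureteric epithelium (adjusted p = 0.0402), past the threshold, and with doublets kept -2.81 over endothelium (adjusted p = 0.0117). In C1, 53 of the 109 cap reads were in 1 of the 9 cap cells with a read, and cap mesenchyme had 1.88 CPM without that cell. Lin28a, its paralog, was listed at 0 or at most 0.559 CPM in every class.

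Hmga2 (chr10:120361275-120476469, minus strand), an architectural chromatin protein, was high in cap mesenchyme and ureteric epithelium. Drop-seq gave 410 CPM in cap mesenchyme (391 to 431), 218 in nephron epithelium, 477 in ureteric epithelium, 308 in stroma and 212 in endothelium. In 10x it had 316 CPM in cap mesenchyme (292 to 342), 77.0 in nephron epithelium, 371 in ureteric epithelium, 136 in stroma and 132 in endothelium. C1 gave 397, 170, 312, 243 and 209 CPM in the same order. Cap mesenchyme was above nephron epithelium, stroma and endothelium in each library. The fold change was 1.40 over nephron epithelium (SE 0.21, edgeR adjusted p = 0.0019), 0.97 over endothelium (SE 0.21, adjusted p = 0.00588) and 0.86 over stroma (SE 0.21, adjusted p = 0.0197), each in 3 of 3 libraries. The endothelium call was lost without Drop-seq (adjusted p = 0.053) and without C1 (0.0697), and the stroma call without Drop-seq (0.116), without C1 (0.137) and without TMM scaling (0.0524). Over ureteric epithelium the fold change was 0.05 (95% interval -0.40 to 0.51). Ureteric epithelium was higher than cap mesenchyme in Drop-seq and 10x and lower in C1, and these 2 classes did not differ beyond the spread.

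Hmga2 was not even within a class. Ureteric clusters led by Calb1, with Ret and Wnt11 (genes of the growing tips) or Ret alone among their leading genes, had 570 CPM in Drop-seq and 424 CPM in 10x, beside 119 and 107 CPM in the Krt19 clusters of the same libraries. Without its cell of 279060 UMIs the Drop-seq Krt19 cluster had 4 Hmga2 UMIs, or 44.5 CPM. In the nephron, proximal tubule cells were lowest in each library, at 103 CPM in Drop-seq, 63.9 CPM in 10x (47.8 in the Slc34a1 cluster and 67.2 in the Osr2 cluster) and 86.9 CPM in C1. In 10x their interval (53.8 to 75.4 CPM) overlapped that of podocytes (61.2 to 112 CPM). C1 held only early and proximal nephron cells. Early nephron epithelium had 231 CPM in Drop-seq and 255 in C1. At 4000 UMIs per cell, 67.3% of Drop-seq and 63.1% of 10x cap cells had an Hmga2 count, against 42.0% and 19.4% of nephron cells. In C1 the share was 94.1% in cap mesenchyme but also 84.6% of 13 immune cells (265 CPM), whereas immune cells of 10x had 7.02% (30.6 CPM). Of the 642 Hmga2 reads in C1 immune cells, 310 were in 1 cell, so C1 shares of Hmga2 are given with no reading against that class. The gene shares 140 of its 6772 exonic bases with a gene on the opposite strand, and the sources used here do not give the strand used in counting.

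**Figure D3:**
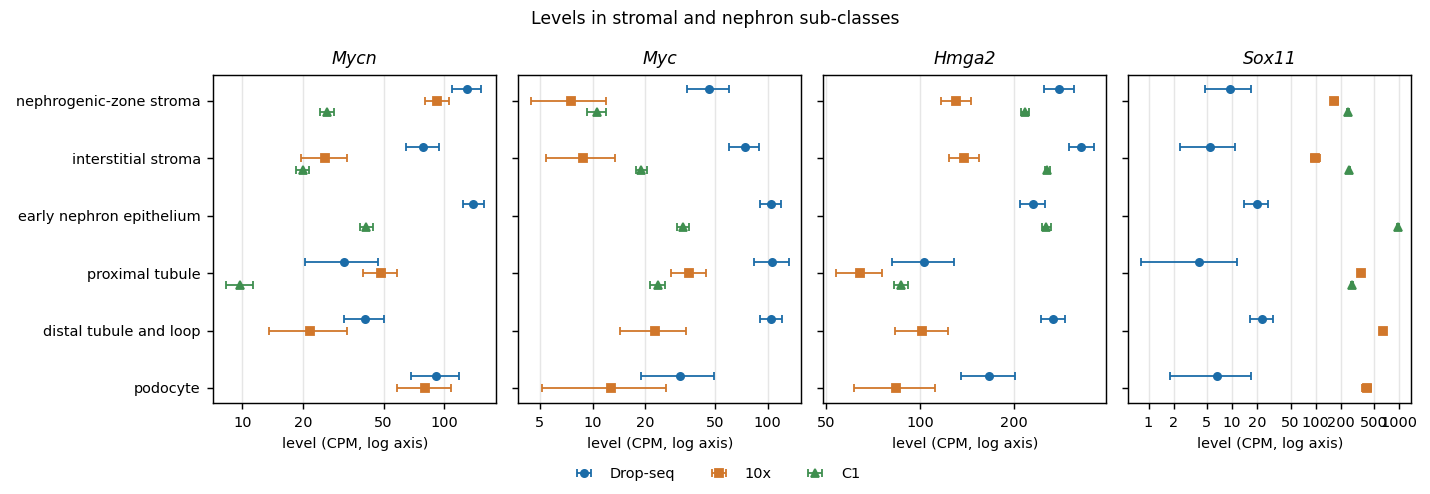
Level of Mycn, Myc, Hmga2 and Sox11 in CPM (log axis) in sub-classes of stroma and nephron epithelium, 1 point per library with its exact 95% Poisson interval and no point where a library held no such class. Mycn in nephrogenic-zone stroma lies above that in interstitial stroma in each library, with 129 and 78.5 CPM in Drop-seq.

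Igf2bp1 (chr11:95957163-96005940, minus strand), an RNA-binding protein that stabilises growth messages such as that of Myc, had counts in all 5 classes, highest in nephron epithelium and lowest in stroma on average over the libraries. Drop-seq gave 148 CPM in cap mesenchyme (136 to 160), 160 in nephron epithelium, 127 in ureteric epithelium, 130 in stroma and 142 in endothelium. The 10x library gave 108 CPM in cap mesenchyme (93.8 to 123), 130 in nephron epithelium, 106 in ureteric epithelium, 67.0 in stroma and 84.8 in endothelium. C1 gave 63.0, 65.2, 64.8, 49.1 and 62.8 CPM in the same order. Nephron epithelium stood first and stroma last, both beyond the spread to their neighbours, and the 3 classes between them did not differ beyond it. The edgeR contrast of cap mesenchyme with nephron epithelium was not called. In E14 cells of C1 both orders turned: cap mesenchyme 48.8 and nephron epithelium 44.8 CPM, stroma 58.6 and endothelium 57.3 CPM. Cap mesenchyme was higher than stroma by 0.49 (SE 0.13, edgeR adjusted p = 0.0264). That call did not hold without Drop-seq (adjusted p = 0.161) or without 10x (0.378, fold change 0.32). The other contrasts gave -0.09 (nephron epithelium, 95% interval -0.37 to 0.19), 0.15 (ureteric epithelium, -0.14 to 0.44) and 0.07 (endothelium, -0.23 to 0.36). The share of cells with an Igf2bp1 count ran from 49.3% (stroma) to 63.8% (nephron epithelium) in Drop-seq, from 32.7% to 60.4% in the same classes of 10x, and from 64.6% (stroma) to 80.5% (endothelium) in C1. In immune cells it was 26.3% in 10x, below each of the 5 classes there, and 84.6% in C1. The level in 10x immune cells was 57.8 CPM from 17 UMIs, near the 67.0 CPM of stroma. Of 9682 exonic bases 135 are shared with other genes.

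Igf2bp3 (chr6:49085223-49214957, minus strand), a paralog of Igf2bp1, had no call in any contrast. Drop-seq gave 115 CPM in cap mesenchyme, 120 in nephron epithelium, 146 in ureteric epithelium, 108 in stroma and 78.3 in endothelium. The 10x values were 92.6, 115, 145, 119 and 78.0 CPM, and the C1 values 133, 126, 125, 101 and 122 CPM in the same order. No neighbours in its order differed beyond the spread between libraries. The fold changes were 0.14 over stroma (95% interval -0.16 to 0.44), -0.04 over nephron epithelium (-0.33 to 0.26), -0.19 over ureteric epithelium (-0.50 to 0.11) and 0.20 over endothelium (-0.10 to 0.51). In 10x the Krt19 cluster of the ureteric epithelium had 220 CPM, beside 130 CPM in the Calb1 one. The Drop-seq Krt19 cluster had 238 CPM, beside 122 CPM in the Calb1 one, but 77 of its 88 UMIs were in the cell of 279060 UMIs, and without that cell it had 122 CPM. The ureteric class of Drop-seq was at 122 CPM without it, in place of 146. The share of cells with an Igf2bp3 count was 37.6 to 51.4% over the Drop-seq classes, 44.1 to 63.6% in 10x and 64.4 to 85.3% in C1, beside 35.1% and 69.2% of immune cells in 10x and C1. Of the 8159 exonic bases of Igf2bp3, 1529 are shared with Malsu1 on the opposite strand, so its level is uncertain.

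Other genes of the LIN28 and let-7 axis moved in both directions. Of all tested genes, 6.89% were called higher over stroma, 2.8% over nephron epithelium, 7.86% over ureteric epithelium and 11.8% over endothelium. In the same order 4.58%, 4.13%, 7.92% and 11.6% were called lower. Of 22 tested, 3 were called higher and 2 lower in cap mesenchyme over stroma, 0 over nephron epithelium, 1 higher and 1 lower over ureteric epithelium, and 6 higher and 2 lower over endothelium, with medians of 0.29, 0.11, 0.14 and 0.35. The 0 over nephron epithelium stood beside 3 higher and 1 lower at an unadjusted p under 0.05 and 1 of each by DESeq2. Igf2, the growth factor whose message the Igf2bp proteins were first found to bind, was lower in cap mesenchyme over stroma (-1.20, SE 0.13, edgeR adjusted p = 0.000101) and over endothelium (-1.61, SE 0.13, adjusted p = 1.14e-06). Its neighbour H19, an imprinted noncoding RNA, was lower over stroma (-0.73) and over endothelium (-0.91). Plagl2, a zinc-finger factor and reported let-7 target, was higher over stroma by 0.84 and over endothelium by 1.32. Trim71, a let-7 target in many animals, was higher over stroma by 2.14 (adjusted p = 0.0485) at 4.80, 4.05 and 3.88 CPM in cap mesenchyme and 1.14, 0.399 and 1.31 CPM in stroma of Drop-seq, 10x and C1. Arid3b, a reported let-7 target, had 8.58, 7.09 and 10.9 CPM in cap mesenchyme of the same libraries and was listed at 0 in endothelium of Drop-seq and 10x. Arid3a, its paralog, was lower in cap mesenchyme, at 30.8, 26.3 and 6.52 CPM, than in ureteric epithelium, at 76.0, 51.6 and 12.8 CPM (edgeR adjusted p = 0.0116). Hnrnpa1, a protein that binds a let-7 precursor, was called higher over ureteric epithelium at 0.59, but its level in C1 was at most 0.201 CPM, so that call rests on Drop-seq and 10x.

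Sox4 (chr13:28948919-28953713, minus strand) was highest in cap mesenchyme in each library. Drop-seq gave 357 CPM in cap mesenchyme (339 to 376), 175 in nephron epithelium, 355 in ureteric epithelium, 304 in stroma and 242 in endothelium. The level in 10x was 619 CPM in cap mesenchyme (585 to 655), 244 in nephron epithelium, 496 in ureteric epithelium, 437 in stroma and 266 in endothelium. C1 gave 83.5, 42.8, 79.1, 61.7 and 43.5 CPM in the same order. The order of the 5 classes was the same in all 3 libraries, although cap mesenchyme and ureteric epithelium, and endothelium and nephron epithelium, did not differ beyond the spread. Cap mesenchyme was higher than nephron epithelium by 1.17 (SE 0.12, edgeR adjusted p = 2.65e-05), than endothelium by 0.85 (SE 0.12, adjusted p = 0.0001) and than stroma by 0.49 (SE 0.11, adjusted p = 0.0119), each in 3 of 3 libraries. The stroma call was lost without Drop-seq (adjusted p = 0.106) and without 10x (0.211). Over ureteric epithelium the fold change was 0.23 (95% interval -0.01 to 0.48, adjusted p = 0.197).

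Nearly every 10x cap cell, 96.5%, had a Sox4 UMI, against 69.5% of nephron cells and 21.1% of the 57 immune cells. At 4000 UMIs per cell the cap shares were 84.5% in 10x and 59.9% in Drop-seq, against 52.2% and 38.6% in nephron epithelium. In C1, 73.5% of cap cells had a read and 23.1% of 13 immune cells (5.78 CPM). The share in each of the 5 classes was above that of immune cells in both libraries, although the interval of the C1 immune cells reached 53.8%. The highest single cluster was a 10x stromal one of 55 cells led by Mgp, Ccl11 and Rgs5, with 959 CPM, beside 471 CPM in 10x interstitial stroma as a whole. In Drop-seq the Krt19 cluster had 585 CPM, beside 296 CPM in the Calb1 cluster, and 545 CPM from 49 UMIs without the cell that held 167 of its 216 UMIs. The ureteric class stood at 311 CPM without that cell, in place of 355. Of 4795 exonic bases of Sox4, 2616 are shared with Gm26735 on the opposite strand, so reads of this pair may not be separable and the level of Sox4 is uncertain.

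Sox11 (chr12:27334264-27342574, minus strand) was high in cap mesenchyme and in both epithelia, and lower in stroma and endothelium. The 10x library gave 458 CPM in cap mesenchyme (429 to 489), 434 in nephron epithelium, 548 in ureteric epithelium, 135 in stroma and 201 in endothelium. C1 gave 495, 615, 678, 249 and 375 CPM in the same order. Drop-seq gave 12.4 CPM in cap mesenchyme (9.15 to 16.3), 17.0 in nephron epithelium, 16.2 in ureteric epithelium, 7.24 in stroma and 7.12 in endothelium. Despite the gap in level, cap mesenchyme was above stroma and above endothelium in each library, although in Drop-seq the counting intervals of both ratios took in 0. The Drop-seq log2 ratio was 0.77 over stroma (-0.018 to 1.62, from 49 UMIs against 19) and 0.80 over endothelium (-0.52 to 2.48, from 49 against 5). The fold change was 1.36 over stroma (SE 0.16, edgeR adjusted p = 0.000124) and 0.69 over endothelium (SE 0.16, adjusted p = 0.00515), each in 3 of 3 libraries. The second call was lost without 10x (0.39, adjusted p = 0.128). Over nephron epithelium it was -0.14 (95% interval -0.45 to 0.18) and over ureteric epithelium -0.28 (-0.60 to 0.04), neither past the threshold. With limma voom the second was -0.41 (adjusted p = 0.0234), past it. In 10x the distal tubule class had 631 CPM, the Osr2 cluster 411 CPM and the Slc34a1 cluster 55.8 CPM, and in C1 early nephron epithelium had 966 CPM and the proximal tubule 270. The C1 cap clusters stood at 285 CPM in the one led by Cited1 and 651 CPM in the other, the reverse of their order for Myc.

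Of the remaining SoxC gene and reported targets, Sox12 and Tead2 could be tested and Tubb3 did not pass the filter. Sox12, which shares the SoxC HMG box, was called higher in cap mesenchyme over nephron epithelium by 0.81 (SE 0.16, edgeR adjusted p = 0.00647), over ureteric epithelium by 1.11 (SE 0.17, adjusted p = 0.000422) and over endothelium by 1.14 (SE 0.17, adjusted p = 0.000201), but not over stroma. Its level in cap mesenchyme was 94.9, 76.9 and 67.7 CPM in Drop-seq, 10x and C1, against 53.0, 47.1 and 41.1 CPM in nephron epithelium. Tead2, a partner of the Hippo pathway's YAP and a reported SoxC target, was higher over ureteric epithelium by 0.65 and over endothelium by 0.42. The 3 SoxC genes thus had different orders: of the epithelia, Sox12 was called against both, Sox4 against the nephron and Sox11 against neither, and these differences between genes were not tested.

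No platform missed a gene: each of the 8 had counts in all 5 classes of all 3 libraries. The nearest to a miss was Lin28b, with a count in 0.892% of all kept cells in 10x, 2.75% in Drop-seq and 5.89% in C1. Next came Sox11 in Drop-seq, with a count in 8.55% of cells. Sox11 had 193 UMIs among all Drop-seq cells, against 4671 UMIs in 10x and 70343 reads in C1. A Drop-seq cap cell had a Sox11 UMI in 7.82% of cases (interval 5.80 to 10.3%), against 91.2% in 10x and 94.7% in C1. In the erythroid class of Drop-seq the share was 1.69%, so the nephron share of 11.9% (9.41 to 14.7%) stood above it, while those of cap mesenchyme, of ureteric epithelium at 13.7% (8.99 to 19.7%), of stroma at 4.37% and of endothelium at 4.95% had intervals that overlapped its 0.0429 to 9.09%. In 10x immune cells it was 8.77% at a median of 5163 UMIs. In C1 immune cells it was 84.6% (433 CPM), with 457 of 1049 reads in 1 cell, and C1 shares of Sox11 were not read against that class.

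Averaged over the 5 classes, Sox11 stood at 12.0 CPM in Drop-seq, against 355 CPM in 10x and 482 CPM in C1. Among 2566 genes with at least 50 CPM in both other libraries, 2 (0.0779%), Sox11 included, were at least as low in Drop-seq by this measure. Sox4 was the low gene of C1, at 62.1 CPM there against 287 in Drop-seq and 412 in 10x, and 94 of 2767 genes (3.40%) with at least 50 CPM in both other libraries, Sox4 included, were at least as low there. Mycn, Myc and Igf2bp1 were highest in Drop-seq, with Myc at 87.3 CPM there against 23.0 in 10x and 22.4 in C1. Igf2bp3 differed least, with 114, 110 and 121 CPM. These means compare platforms on 1 library each, so no test was possible, and chemistry cannot be told apart from other differences between the libraries. Drop-seq and 10x had median depths of 7060 and 7369 UMIs per cell. At 4000 UMIs per cell, 3.95% of Drop-seq and 48.4% of 10x cells had a Sox11 UMI. The part of chemistry or depth in the levels was not tested.

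**Figure D4:**
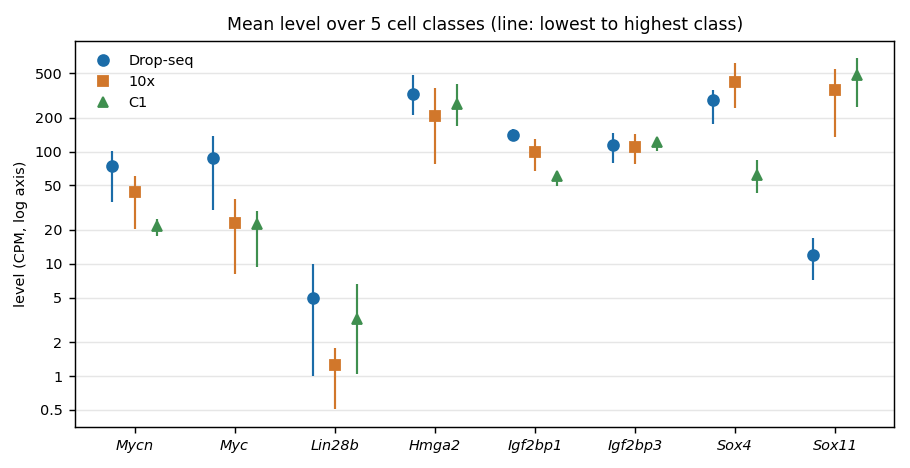
Mean level of each gene over the 5 classes in CPM (log axis), 1 point per library, with a line spanning the lowest to the highest class. Sox11 has its lowest value in Drop-seq (12.0 CPM) and Sox4 in C1 (62.1 CPM).

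Lists of other processes give the setting of these contrasts. Of all tested genes, 6.89% were called higher over stroma, 2.8% over nephron epithelium, 7.86% over ureteric epithelium and 11.8% over endothelium. In the same order 4.58%, 4.13%, 7.92% and 11.6% were called lower. Immediate early genes, which respond to handling as well as to signals, were called higher and lower 1 and 2 times of 15 over stroma, 0 and 2 over nephron epithelium, 0 and 5 over ureteric epithelium and 2 and 5 over endothelium. At an unadjusted p under 0.05 the higher ones were 1, 2, 1 and 2, and DESeq2 called 1, 0, 0 and 2. Klf6 was lower over stroma (-2.12), nephron epithelium (-1.55) and endothelium (-2.33), and Atf3 had 0.252, 0 and 0.1003 CPM in cap mesenchyme of Drop-seq, 10x and C1, against 8.54, 4.15 and 13.8 CPM in endothelium. Of 20 cell cycle genes, 2, 1, 2 and 0 were higher and 0, 0, 0 and 5 lower over the 4 classes in the same order. The lower ones were 1, 4, 0 and 8 at an unadjusted p under 0.05 and 1, 1, 0 and 6 by DESeq2, and 0 were higher over endothelium by either. Mcm7 and Mcm6, helicase subunits of DNA replication, were higher over stroma by 0.57 and 0.38, while the mitotic kinase gene Cdk1 was lower over endothelium at -0.83. The part of either process in the members' contrasts was not tested.

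Genes whose class pattern was most like each member were ranked by Pearson's r of log2(CPM + 5), centred in each library, over the 15 class sums. These sums share libraries and depth, and r is given as a description. Myc was followed by the ribosomal protein genes Rps2 (r = 0.94) and Rpsa (0.92), and Mycn by Trim44 (0.93), Gstm5 (0.92) and Caprin2 (0.92). Hmga2 was most like Ak1 (0.93), Grcc10 (0.91) and Phlda1 (0.91). Lin28b was most like Hltf (0.90), Mtss1 (0.84) and Ctnnb1 (0.84), Igf2bp1 like C330021F23Rik (0.87), Slc9a3r1 (0.85) and Lpgat1 (0.85), and Igf2bp3 like Nt5c2 (0.95), Kctd1 (0.92) and Zcchc7 (0.90). Sox4 was most like Mylip (0.91), Sept6 (0.89) and Pdp2 (0.89), and Sox11 like Mllt6 (0.95), Cd24a (0.94) and Atp6v1f (0.94). Between members, Hmga2 and Sox4 were the most alike pair (0.88), followed by Igf2bp1 and Sox11 (0.82), while Mycn and Lin28b were the most opposed (-0.72). Myc and Mycn had an r of -0.17.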

How the data were processed

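The deposited tables hold raw counts per gene and cell, UMIs for Drop-seq and 10x and reads for C1. Per the submitters' processing notes, reads were mapped to mm10, with Bowtie2 2.2.7 named for Drop-seq and C1 and Cell Ranger 1.3.0 for 10x. The sources used here do not give the tools' roles, the counting strand or the annotation. The labels' preparation text describes Drop-seq for all 3 samples.

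Cells with 500 or more genes and at most 20% mitochondrial counts were kept. C1 lists no mitochondrial gene. Scrublet doublets were removed from 10x (17) and C1 (11). It marked 5 of 2000 Drop-seq cells, too few to have worked, and none were removed there. Each library was clustered with scanpy 1.11.5 (2000 variable genes, 30 components, Leiden resolution 1) with the 8 genes and the gene lists kept out, and clusters were named from fixed marker lists. A rule that left 92 cells in 10x unnamed was added after seeing the data. Summing raw counts by class within each library gave 15 sums, tested with edgeR 4.0.16 (R 4.3.3, TMM, filterByExpr, library as block, 8 residual degrees of freedom) over 9409 genes used neither for clustering nor naming, at an adjusted p of 0.05, two-sided. The p-values measure the spread between 3 platform libraries, not between animals. CPM used the total of the 17864 shared symbols. Shares have exact Clopper-Pearson 95% intervals, also covering counting error only. Each cell was also thinned to 4000 UMIs or 50000 reads. The 3 libraries held 17751487 and 17465306 UMIs (Drop-seq and 10x) and 171283962 reads in kept cells. The test was tried on simulated counts first. For cap mesenchyme over stroma it recovered 71.7% of 99 simulated 4-fold changes and 30.2% of the 96 that were 2-fold. There were 5 false calls among 12064 genes. A contrast that was not called can therefore still hold a change of that size.

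The 8 genes and all lists were chosen with earlier results of these data known. All members are named, plus up to 2 genes per direction of largest fold change per list and contrast, and the 3 genes most like each member among those with 10 CPM or more in some class of every library. One gene under this rule is not reported here. Clusters, sub-classes and C1 name groups named in the text were picked after their values were seen. Transcripts, coordinates and exons are from GENCODE for GRCm38 (the assembly of mm10). DESeq2 1.42.0, limma 3.58.1 (voom) and other cell, cluster and scaling choices were the alternatives, with the deepest cell or the cell of most counts left out added after seeing the data.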

Additional observations from a re-analysis of the deposited data

Results flagged for a closer look

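In 8 contrasts a member's ratio of cap mesenchyme over the other class had opposite signs in different libraries, each with a counting interval that left out 0. The difference between libraries was not tested, and the C1 intervals, made on reads, are too narrow. On the log2 scale, Mycn over nephron epithelium was 0.39 in 10x and -0.51 in C1. Mycn over ureteric epithelium was 0.51 in Drop-seq and 0.71 in 10x but -0.51 in C1, where 1 ureteric cell held 131 of 407 reads and the ratio was -0.14 without the cell of most reads in each class. The C1 share of cells with a Mycn read was 30.6% in cap mesenchyme, against 27.6% in ureteric epithelium. Lin28b over nephron epithelium was 0.42 in C1 and -2.39 in Drop-seq, and over ureteric epithelium 1.79 in C1 and -2.85 in Drop-seq, from few UMIs. Of the 109 C1 cap reads of Lin28b 53 were in 1 cell, and without the top cell of each class these C1 ratios were 0.10 and 1.59. The share of C1 cells with a Lin28b read was 5.29% in cap mesenchyme, against 7.69% in nephron and 10.3% in ureteric epithelium. Hmga2 over ureteric epithelium was 0.35 in C1, -0.22 in Drop-seq and -0.23 in 10x. Igf2bp3 over nephron epithelium was 0.067 in C1 and -0.32 in 10x. Over ureteric epithelium it was 0.079 in C1, -0.35 in Drop-seq and -0.64 in 10x. The Drop-seq value was -0.11 without the top cells, of which the ureteric one held 77 of 262 UMIs. Over stroma it was 0.39 in C1 and -0.36 in 10x. In each of these contrasts C1 was the library on the other side. None of the 8 was called by edgeR with all 3 libraries.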

How the results depend on the processing

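The counts of genes called over stroma, nephron epithelium, ureteric epithelium and endothelium (1079, 652, 1485 and 2206) ranged from 139 to 1528, 129 to 1073, 256 to 1902 and 773 to 2700 when each library was left out, lowest without Drop-seq and highest without C1 in each. Without the library block they were 4, 37, 178 and 352, and with limma voom 3359, 2632, 2971 and 3609. Per-cell marker scores gave 2072, 1315 and 2348 for the first 3, the C1 name groups as separate libraries 677 over stroma and 966 over ureteric epithelium, and 1000 variable genes 1786 over stroma. Leaving out the deepest cell of each class in each library, chosen after seeing the data, gave 1083, 650, 1351 and 2163 genes called and kept all 12 calls, while the MYC targets called higher over nephron epithelium were 4 in place of 1. The members called higher over stroma (5) were 1 to 4 with a library left out, 0 without the block, 3 without TMM, 2 with doublets kept and 3 with C1 name groups. Over nephron epithelium (2) they were 0 without the block, over ureteric epithelium (1) 1 to 2 with a library left out and 0 without the block, and over endothelium (4) 2 to 3 and 0. The cause was not tested, except that leaving out a library leaves fewer sums.

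Reversed signs were all in contrasts that were not called. With a library left out, Mycn ranged from -0.18 to 0.018 over stroma and from -0.13 to 0.32 over nephron epithelium, Lin28b from -0.55 to 0.52 over stroma and from -2.41 to 0.86 over ureteric epithelium, Igf2bp3 from -0.059 to 0.29 over stroma and from -0.092 to 0.040 over nephron epithelium, and Hmga2 from -0.093 to 0.14 over ureteric epithelium. Mycn over stroma was 0.038 without the block, 0.011 at Leiden resolution 0.6, 0.044 with 1000 variable genes, 0.051 with doublets kept and 0.016 by marker score. Mycn over nephron epithelium was -0.16 with voom, -0.045 at resolution 1.6, -0.046 by marker score and -0.027 with C1 name groups, and over ureteric epithelium -0.016 with voom and -0.081 with C1 name groups. Lin28b over ureteric epithelium was 0.88 with voom, 0.12 with 1000 variable genes and 0.059 with C1 name groups, and over stroma -0.92 with doublets kept. Hmga2 over ureteric epithelium was -0.045 without TMM, -0.013 at resolution 1.6, -0.0062 by marker score and -0.027 without the deepest cells. Sox11 over nephron epithelium was 0.31 at resolution 0.6, Myc over endothelium -0.093 with C1 name groups, Igf2bp1 over endothelium -0.037 with doublets kept and -0.033 by marker score, and Igf2bp3 over nephron epithelium 0.059 with doublets kept.

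Past the threshold only under an alternative were Mycn and Lin28b over ureteric epithelium and Lin28b over endothelium (without C1), Lin28b over endothelium (doublets kept) and Sox11 over ureteric epithelium (voom). Of the 12 calls, Sox11 over stroma, Hmga2 and Sox4 over nephron epithelium, Myc over ureteric epithelium and Sox4 over endothelium were lost only without the library block. Mycn over endothelium was lost in 7 of 17 alternatives and Igf2bp1 over stroma in 9. Of 120 class levels, 99 to 118 stayed within the counting interval under the other cluster and cell choices, 90 by marker score and 74 with totals over all genes of a table. Classes were compared within each library through the block. Pairing between libraries by animal was not possible, because they share only the replicate number 1 and no animal is named. Lin28b had the fewest counts of the members, with 19 UMIs in 10x and 61 in Drop-seq. The median depths were 7369 and 7060 UMIs per cell. At 4000 UMIs per cell the share of cells with a Lin28b count was 0.37% in 10x and 1.14% in Drop-seq. The part of depth in these counts was not tested.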

Other observations

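In 10x, 77 cells in a cluster led by Akr1b7, Ndufa4l2, Cygb and Rgs5 were left without a class name, and their Sox4 level of 551 CPM was above that of 437 CPM in stroma. Sox11 was 88.8 CPM there and Hmga2 66.6 CPM, below the 135 and 136 CPM of stroma. Myc was 37.0 CPM, close to the 37.5 CPM of cap mesenchyme. A second cluster without a name, of 15 cells led by Stmn2, Aqp1 and Gja4, had 342 CPM of Sox11 and 560 CPM of Sox4. In Drop-seq, the Myc level of the 59 erythroid cells was 128 CPM, beside 136 CPM in cap mesenchyme, while their Mycn level was 14.6 CPM. No test was made on these clusters, whose values were seen before they were chosen.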
